A study of Homo sapiens with 9 samples.

Results

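The HOX genes encode homeodomain transcription factors that give cells their position along the body axis. Their promoters were followed here in MDA-MB-231 cells, a human triple-negative breast cancer (TNBC) cell line, across 9 ATAC-seq libraries, in which the Tn5 transposase marks open chromatin. The members were 38 of the 20033 protein-coding genes, chosen by name: 10 in HOXA on chromosome 7, 10 in HOXB on chromosome 17, 9 in HOXC on chromosome 12 and 9 in HOXD on chromosome 2. A promoter was the 1 kb on either side of the start of the Ensembl canonical transcript (GENCODE v44, GRCh38). Each cluster was also followed as a whole, from its first to its last member with 50 kb on either side, and there the 9 lists formed 78 of the 118719 regions of the series. The groups were shCtrl, shEZH2 and shE2F1, with 2 libraries each, and shSUZ12, with 1, all from lentiviral hairpins. These 7 were transduced for 24 h and selected with puromycin at 2 μg/ml for 72 h. The DMSO library, labelled WT by treatment, and the library from cells given the EZH2 inhibitor GSK126 for 72 h, at a dose not given for ATAC-seq in the sources used here, carry no hairpin in their labels. One hairpin sequence was used per target, and knockdown was not measured by these lists.

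HOX genes lie in 4 clusters, in which neighbouring genes are switched on together and in order during development, and genes at the same place in different clusters (paralog groups 1 to 13) share their ancestry. Outside the tissues that use them, HOX clusters are the textbook targets of polycomb repressive complex 2 (PRC2), whose catalytic subunit EZH2 and partner SUZ12 place trimethylation on lysine 27 of histone H3. The CpG-rich promoters of the clusters are what PRC2 is known to bind. E2F1 is a transcription factor of the cell cycle. The comparisons of the series were therefore used here to ask whether the set of accessible HOX promoters changed. They cover depletion of EZH2, SUZ12 or E2F1, and inhibition of EZH2.

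Each list held 58626 to 85812 peaks, and background depth, read from the lists, relative to the first shCtrl library, was lowest in shEZH2 replicate 2 (0.788) and highest in shE2F1 replicate 2 (1.22). The strength of a peak is given as a percentile, the rank of its deposited fold enrichment over local background among all peaks of its own list. All 8 promoters of genes that mark this mesenchymal line (VIM, CD44, AXL, EGFR, ZEB1, CAV1, MSN, FOSL1) had a peak in every list, and of 5 blood and endothelial marker promoters none had a peak in a control. Of 8 luminal and epithelial marker promoters, 6 had a peak in all 3 controls and GATA3 had none in any list.

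Most HOX promoters were closed in every library. A peak was listed at 6 of the 38 members in all 9 lists (15.8%), against 60.0% of all protein-coding promoters, and at 31 members (81.6%) no list held a peak, against 29.1% of all promoters. The 6 open members were HOXA13, HOXB5, HOXB9, HOXC5, HOXD4 and HOXD1. They came from all 4 clusters and from paralog groups 1, 4, 5, 9 and 13, so no run of neighbouring HOX promoters was open. Of the 7 members in paralog groups 1 to 3, the anterior genes, 1 was open. Of the 15 in groups 4 to 8, 3 were open, and of the 16 in groups 9 to 13, the posterior genes, 2 were open and HOXD11 varied between lists.

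**Figure D1:**
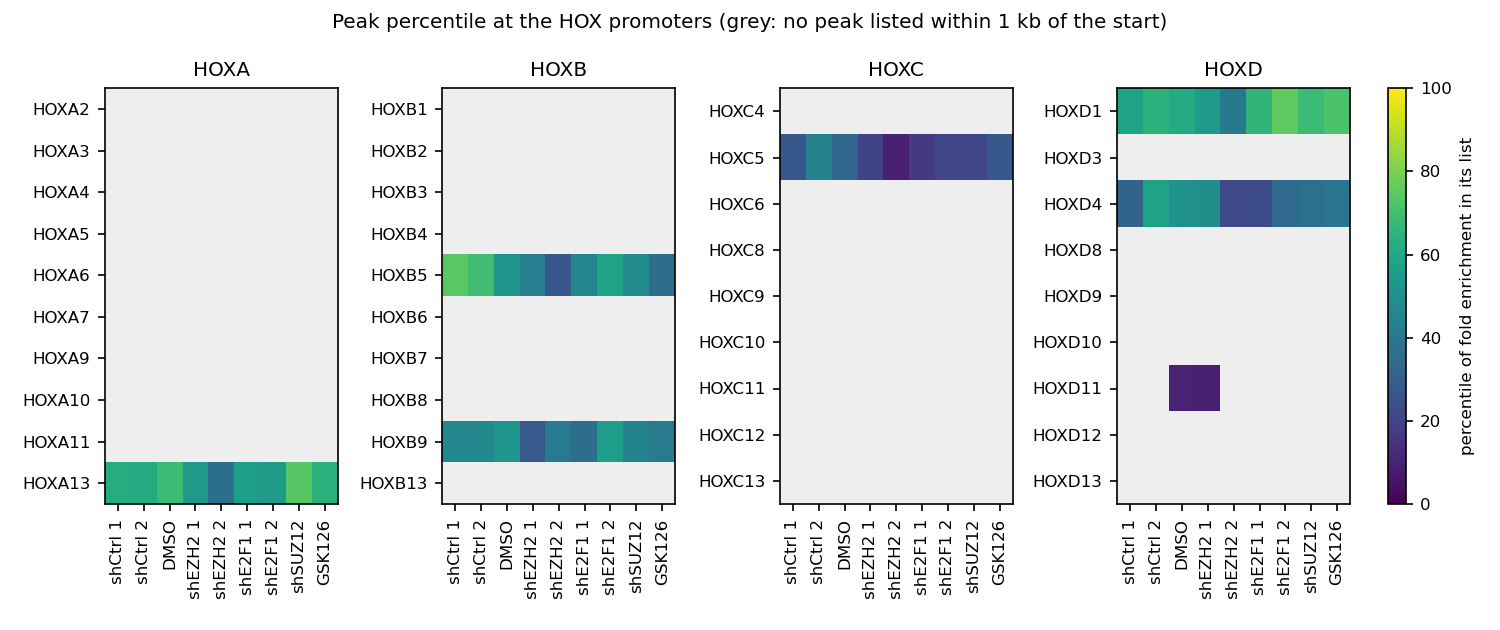
Percentile of the strongest peak within 1 kb of the start of each of the 38 HOX genes (rows, by paralog group) in each of the 9 libraries (columns). Grey marks a promoter with no listed peak: 31 rows are grey throughout, 6 are coloured throughout, and HOXD11 is coloured in DMSO and in the first shEZH2 library.

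HOXD11, a gene of forelimb and kidney patterning, was the member whose presence varied. Its peak was listed at a percentile of 9.39 in DMSO and 8.65 in the first shEZH2 library, with 13 tags at the summit in each, and in none of the other 7. Both values are near the bottom of their lists, and the peak was absent when every list was shortened to its 58626 strongest peaks or limited to a −log10 q of at least 5. Under both of these settings 32 members had no peak in any list.

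The open members were weak for promoters. Over the 6, the median of the mean percentile across the 9 lists was 47.1, against 77.6 over the 12026 promoters with a peak in every list. In the 3 controls HOXB5 had the highest mean percentile, 65.2, followed by HOXA13 at 64, HOXD1 at 61.2, HOXB9 at 48.6, HOXD4 at 47 and HOXC5 at 34.8. The 2 shCtrl libraries differed by as much as 25.7 at HOXD4 and by 0.0317 at HOXB9, and the control values of HOXB5, HOXA13 and HOXD1 overlapped one another, as did those of HOXD4 with HOXB9 and with HOXC5.

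HOXB5, a mid-cluster gene known from studies of blood stem cells and the gut nervous system, had a compact peak of 226 to 520 bp with its summit at -292 to -214 bp from the start, the minus sign meaning upstream. HOXA13, a gene of the limb tip and the urogenital tract, had a peak of 513 to 1039 bp in front of its start, in a window that also holds the start of the antisense transcript HOTTIP. HOXD1, the most anterior HOXD gene, had a peak of 1148 to 1769 bp, with 42 to 131 tags at a summit -86 to 22 bp from the start. That peak also covers the starts of the antisense transcript HAGLR and of MIR7704, and ATAC-seq has no strand with which to tell them apart. HOXB9, a gene of the thoracic skeleton and the mammary gland, had a peak of 482 to 2013 bp with 42 to 92 tags at its summit. The summit lay at 399 to 429 bp in 6 lists, at -327 bp in the second shCtrl library, at -339 bp in shSUZ12 and at 985 bp in the first shEZH2 library. At HOXC5, which carries the microRNA gene MIR615 in its intron, the promoter window held up to 3 small neighbouring peaks, and the strongest of them was 200 to 397 bp wide. It was not the same peak in every list: its summit lay at 1057 bp in the second shEZH2 library, at -277 and -306 bp in the shE2F1 libraries and at 343 to 371 bp in the other 6. At HOXD4, a retinoid-responsive gene of the hindbrain and neck, the summit lay 360 to 1467 bp inside the gene, and with 500 bp on either side of the start the peak was no longer counted in every list.

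As a group, closed HOX promoters did not lack CpG, though single ratios ran from 0.25 to 0.95. The observed/expected CpG ratio within 1 kb of the start had a median of 0.70 over the 31 closed members and 0.70 over the 6 open members. Over all promoters the medians were 0.29 for the 6249 closed and 0.70 for the 12864 open ones. The 65 other developmental homeobox genes had a median of 0.78, and 35 of them (53.8%) were closed. A CpG-rich set with many closed promoters was thus not particular to HOX. Of 26 members with a ratio of at least 0.6, 4 were open and 21 closed, whereas 85.2% of the 11264 protein-coding promoters with such a ratio were open in all 3 controls. The upstream bases of a CpG-rich closed promoter are shown as an example, 5′ to 3′ on the strand of the gene, with each CpG in capitals. They are those of HOXA9, a posterior gene known from leukaemia, at chr7:27165538-27165737 (minus strand, closed in all lists, 18 CpG in 200 bases). HOXA9 had the highest ratio, 0.88, among closed members whose upstream bases overlap no annotated untranslated region.
HOXA9: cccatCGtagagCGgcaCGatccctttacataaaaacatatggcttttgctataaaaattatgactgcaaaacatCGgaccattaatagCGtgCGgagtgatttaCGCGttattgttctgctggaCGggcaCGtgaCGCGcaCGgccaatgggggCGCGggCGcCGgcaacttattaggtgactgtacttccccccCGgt
GC content within 1 kb was 60.6% at HOXA9, closed, and 55.4% at HOXB5, the open member with the highest control percentile.

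**Figure D2:**
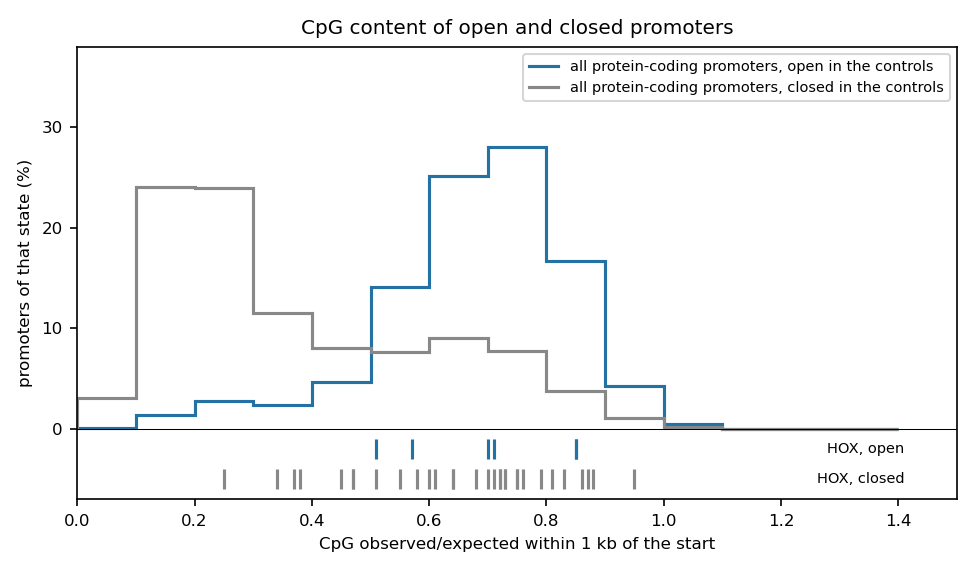
Observed/expected CpG ratio within 1 kb of the start (horizontal axis) for all protein-coding promoters, as the percentage of open (blue, median 0.70) and of closed (grey, median 0.29) promoters per step of the ratio. Ticks below the axis are the HOX promoters: the 6 open ones lie between 0.51 and 0.85 and the 31 closed ones between 0.25 and 0.95.

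Some closed members had an open alternative start. HOXC4, HOXC6 and HOXC9 had no peak at their canonical starts, but further protein-coding transcripts of these genes start inside open regions that had a peak in all 9 lists. The HOXC4 transcript starts 36.9 kb upstream, at a region with percentiles of 67.1 and 61.9 in shCtrl and 55.6 in DMSO. A HOXC6 transcript starts 33.5 kb upstream and a HOXC9 transcript 4.65 kb upstream, at the same region, which had percentiles of 42.3 and 41 in shCtrl and 61.4 in DMSO. HOXA10, a leukaemia-associated posterior gene, has a transcript that starts 5.94 kb upstream, where 6 of the 9 lists held a peak. Counting every protein-coding start, 9 members were open in all 9 lists and 27 had no peak in any, beside 63.4% and 25.7% of all protein-coding genes.

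Within the clusters, as over the genome, most of the constant open regions lay away from canonical promoters. From the first to the last member the clusters held 52 regions, and 18 of them were listed in every library: 3 in HOXA, 7 in HOXB, 4 in HOXC and 4 in HOXD. Of these 18, 6 were at the 6 open members and the other 12 were at no canonical HOX start. That is 33.3% at a canonical start, against 27.3% of the 40606 constant regions of the genome. The share at promoters therefore shows nothing particular to the HOX clusters. Among the 12 are the HOXC regions at the alternative starts of HOXC4, HOXC6 and HOXC9. In the 3 controls the 12 had a median percentile of 74 (48.2 to 94.8) and the 6 a median of 54.9 (34.8 to 65.2). Genome-wide, constant regions were the other way round, with a median of 76.6 at 11090 promoter regions and 69.4 at 29516 others. The list of regions is a description of these libraries, and no test was made of the HOX regions against the rest.

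**Figure D3:**
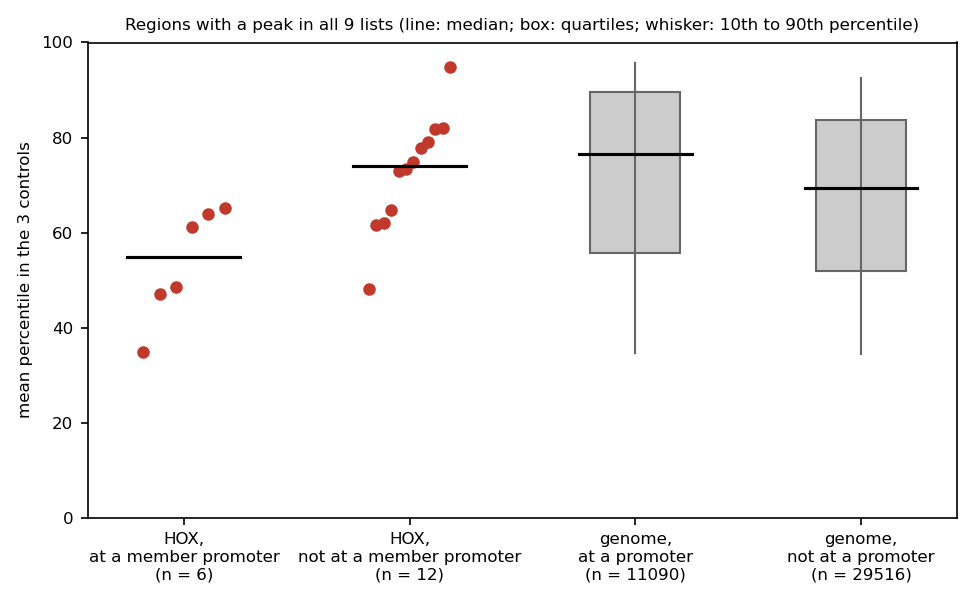
Mean percentile in the 3 control libraries of regions with a peak in all 9 lists. Each of the 18 HOX regions is a point; for the genome the box gives the quartiles and the whisker the 10th to 90th percentile. The HOX promoter regions (median 54.9) lie below the other HOX regions (median 74), and the genome has the reverse order (76.6 and 69.4).

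The strongest region of each cluster without an annotated untranslated region within 100 bases of its summit lay away from the open promoters. In HOXA it was intergenic, 4.37 kb from the HOXA9 start and between HOXA7 and HOXA9, with percentiles from 50.3 in the first shE2F1 library to 81.7 in the first shEZH2 library. In HOXB it was in an intron of HOXB3, with percentiles from 89.1 to 95.2, the highest control mean between first and last member in any of the 4 clusters. In HOXC it lay between HOXC9 and HOXC8 (37.1 to 72.9), and in HOXD between HOXD8 and HOXD4 (67.3 to 84.6). The summit bases of 3 of them, on the plus strand of GRCh38, are given with motif matches in capitals. The windows are chr7:27161063-27161263 in HOXA, chr12:54006024-54006224 in HOXC and chr2:176140568-176140768 in HOXD.
HOXA: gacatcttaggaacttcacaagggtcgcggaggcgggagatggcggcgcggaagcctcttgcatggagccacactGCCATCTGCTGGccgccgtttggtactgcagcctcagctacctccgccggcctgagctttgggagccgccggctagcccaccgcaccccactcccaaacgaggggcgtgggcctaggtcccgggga
HOXC: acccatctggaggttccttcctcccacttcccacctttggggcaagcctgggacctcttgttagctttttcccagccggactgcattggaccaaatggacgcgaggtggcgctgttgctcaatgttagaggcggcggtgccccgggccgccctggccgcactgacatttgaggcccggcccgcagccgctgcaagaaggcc
HOXD: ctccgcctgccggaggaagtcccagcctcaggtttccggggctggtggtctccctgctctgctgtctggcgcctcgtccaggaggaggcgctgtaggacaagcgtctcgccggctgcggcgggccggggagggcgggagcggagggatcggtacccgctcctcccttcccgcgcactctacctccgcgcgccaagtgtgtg
The capitals in the HOXA sequence are a match, on the minus strand, to the core of the motif of CTCF, the insulator protein known to divide HOX clusters into domains. The motifs searched on both strands were the 12-base CTCF core, TGACTCA or TGAGTCA for AP-1 and TTTNNCGC (each N being C or G) for E2F. Only exact matches were counted, so a window without capitals can still hold a near match to any of them. In the sequences printed, no matches to different motifs overlapped. An AP-1 match counts on both strands, since TGACTCA is TGAGTCA on the opposite strand. The CTCF letters were in 1 of the 12 constant HOX regions away from canonical member starts and in 4.76% of the 29516 such regions of the genome. AP-1 letters were in 1 of the 12 and in 38.3% of those of the genome. E2F letters were in none of the 52 HOX regions between first and last member and in 0.789% of all 118719 regions.

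Some stretches of the clusters had no peak in any library. Stretches and peak cover elsewhere in the genome were not set beside them, so these values do not show unusually empty clusters. In HOXA the longest such stretch was 23.5 kb, chr7:27136788-27160252, and held the starts of HOXA3, HOXA5, HOXA6 and HOXA7. In HOXB a 24.2 kb stretch held HOXB6, HOXB7 and HOXB8, and the longest, 44.3 kb between HOXB9 and HOXB13, held no member start. In HOXC 18.9 kb at the HOXC4 end and 17.5 kb with HOXC13 and HOXC12 were empty, and in HOXD 18.1 kb with HOXD3 and 13.6 kb with HOXD9 and HOXD10. Peaks covered 1.42 to 3.15% of the HOXA bases between first and last member, depending on the library, 2.27 to 3.99% of HOXB, 1.26 to 4.11% of HOXC and 3.78 to 6.17% of HOXD. The second shEZH2 library, with the fewest peaks, gave the lowest cover of HOXB and HOXC.

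**Figure D4:**
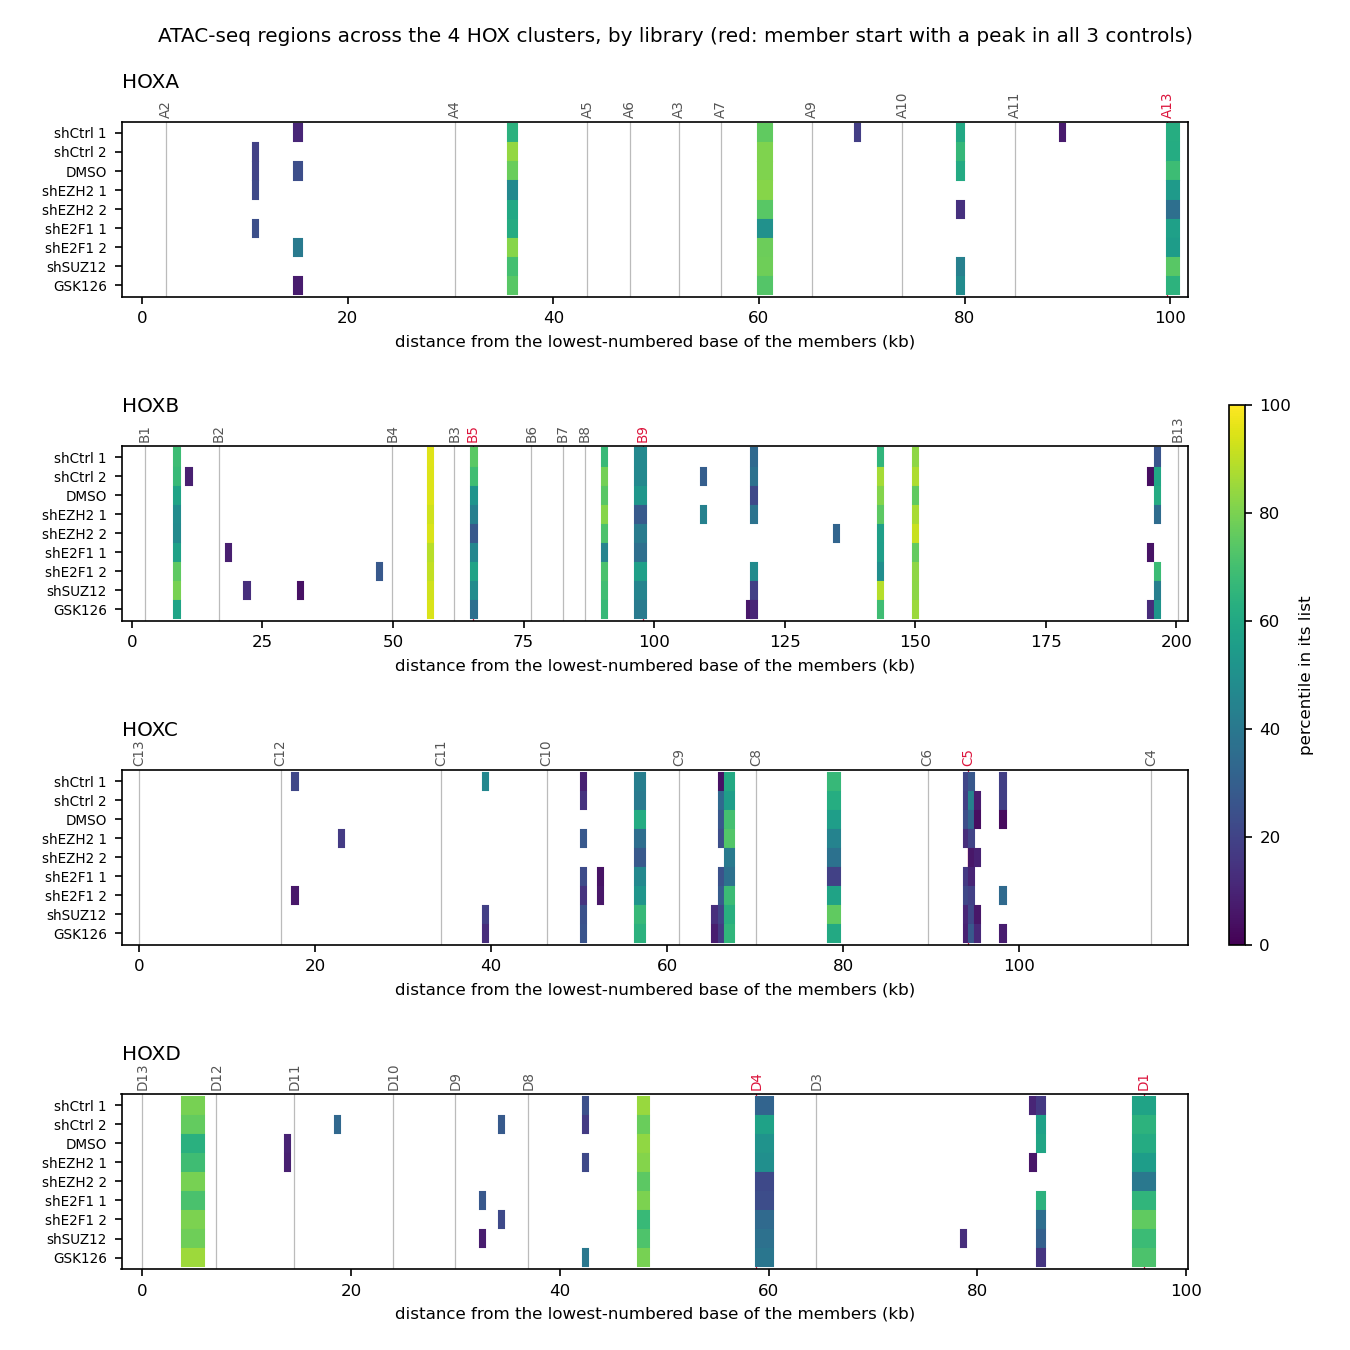
Regions with a peak between the first and last member of each cluster (horizontal axis, kb from the lowest-numbered base) in the 9 libraries (rows), coloured by percentile and drawn at least 0.005 of the cluster wide. Vertical lines are canonical starts, red for the 6 with a peak in all 3 controls. Full-height columns are the 18 constant regions, of which 33.3% are at a canonical start, against 27.3% over the genome.

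The set of HOX promoters with a peak was compared between shEZH2 and shCtrl. Of the 32 members without a peak in either shCtrl library, 0 gained a peak in both shEZH2 libraries, against 0.236% of all promoters closed in shCtrl. None of the 6 open members lost its peak, against 1.53% of all. Both counts are at the background share, so they show nothing particular to the HOX genes. The number of HOX promoters with a peak was 6 and 6 in shCtrl and 7 and 6 in shEZH2, a mean difference of 0.5 (exact permutation test, two-sided, p = 1, n = 2 and 2). With 2 libraries against 2 the exact permutation test cannot go below p = 0.333, and since nothing in the labels says that replicates were separate cultures, p-values measure only the spread between these libraries.

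At the promoters that stayed open, peaks ranked lower with shEZH2. Of the 6, 5 ranked lower in each shEZH2 library than in either shCtrl library, and 0 ranked higher. Over all 12234 promoters with a peak in the 4 lists, 29.7% were lower and 10.6% higher in this way. The median difference of mean percentile was -15 over the 6 members and -2.58 over all promoters. All promoters were not matched to the members in strength. The median of the mean percentile was 47.1 over the 6, against 77.6 over promoters with a peak in every list. The part of strength in these differences was not tested. The largest was at HOXB5, with 74.4 and 69.4 in shCtrl, 42.7 and 27.7 in shEZH2, and a difference of -36.7. The HOXB5 summits held 40 and 38 tags in shCtrl and 24 and 19 in shEZH2. However, DMSO, also a control, had a HOXB5 percentile of 51.7 and 21 tags, so that controls themselves spanned much of this difference. HOXC5 had 27 and 44.3 in shCtrl, 33.2 in DMSO, and 20 and 9.18 in shEZH2. HOXA13 had 61.9 and 61.4 in shCtrl and 54.1 and 36 in shEZH2. At HOXC5, however, the second shEZH2 value belongs to another small peak of the window. HOXD1 had 58 and 64.4 in shCtrl and 55.3 and 40.1 in shEZH2. HOXB9 had 46.7 in each shCtrl library and 27.8 and 41.4 in shEZH2. The HOXB9 peak of the second shCtrl library, with its summit at -327 bp, did not overlap the peak of either shEZH2 library. In DMSO, HOXA13 was at 68.7, HOXD1 at 61 and HOXB9 at 52.5, and all 5 lower members were below each of the 3 controls in both shEZH2 libraries. HOXD4, with 32 and 57.7 in shCtrl and 49.6 and 21.9 in shEZH2, overlapped. When every list was cut to 58626 peaks, HOXA13, HOXB5 and HOXC5 stayed lower (3 of 6, against 14.4% of all promoters), HOXB9 and HOXD1 overlapped, and 23.9% of all promoters were higher. Ranked by −log10 p, 4 of 6 were lower, against 42.2% of all promoters, and HOXA13 overlapped, with 62 in the first shEZH2 library and 61.5 in the first shCtrl library. The second shEZH2 library was the shallowest of the series, and the part of its depth in these differences was not tested.

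**Figure D5:**
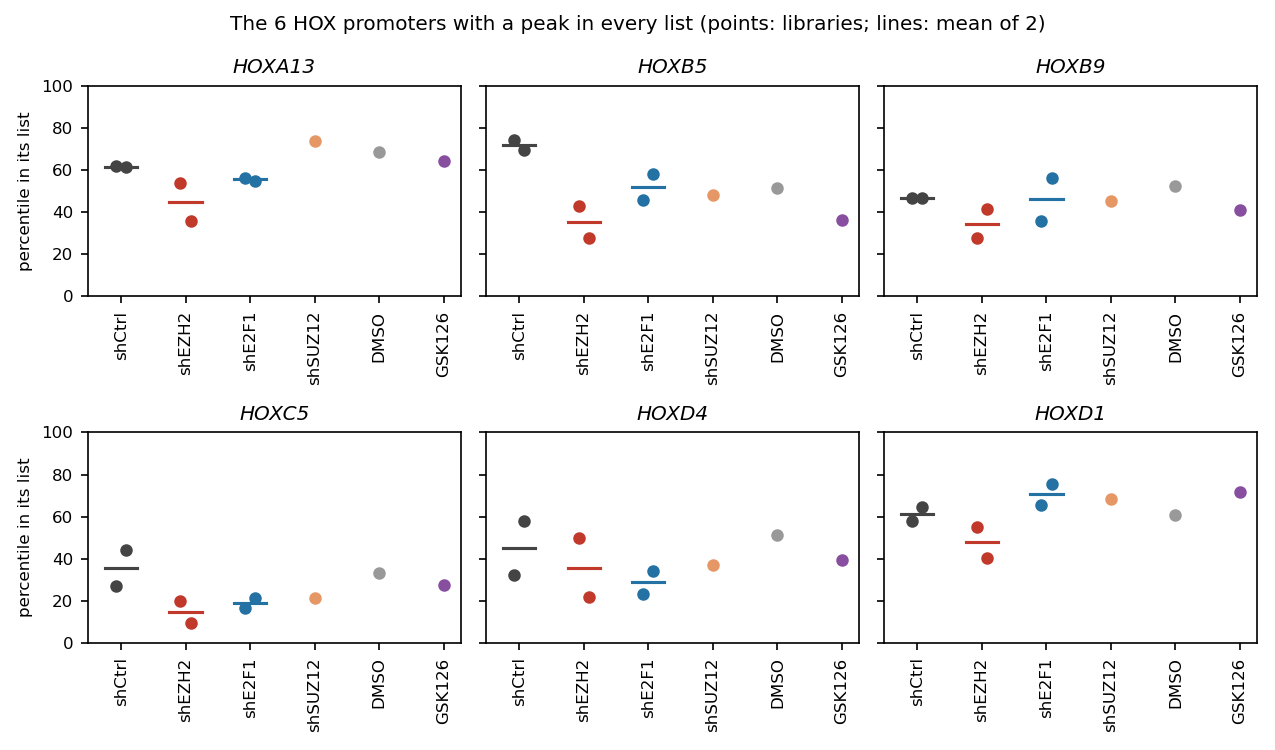
Percentile of the promoter peak in its list (vertical axis) for the 6 HOX genes with a peak in every list, by group. Points are libraries and lines the mean of 2 replicates. HOXB5 and HOXC5 lie below shCtrl in both knockdowns, and HOXD1 lies below shCtrl with shEZH2 and above it with shE2F1.

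With shE2F1 and shCtrl, HOX promoters with a peak numbered 6 in each of the 4 libraries (difference 0, exact permutation test, two-sided, p = 1, n = 2 and 2). Of 32 closed members 0 gained a peak, against 0.613% of all closed promoters, and 0 of 6 lost it, against 0.906%, again at the background share. Percentiles were lower in both shE2F1 libraries at 3 of 6 members, against 17.0% of 12516 promoters, and higher at 1, against 19.2%. The median difference was -11 over the members and -0.0714 over all promoters, which again were not matched in strength. HOXB5 was at 46 and 58, against 74.4 and 69.4 in shCtrl. HOXC5 was at 16.6 and 21.3, from the upstream peak of its window, and HOXA13 at 56.3 and 54.8. These 3 are the lower members, while HOXB9 (36 and 56.2) and HOXD4 (23.4 and 34.2) overlapped shCtrl. In lists of the same length the count was again 3, against 15.4% of all promoters, but HOXA13 overlapped (49.1 and 33.9 against 48.9 and 46.1 in shCtrl) and HOXD4 was lower (13.3 and 12.9 against 14.5 and 41). The DMSO value of HOXB5, 51.7, lay between its shE2F1 values. HOXD1 was the member that stood higher, at 65.5 and 75.6 against 58 and 64.4, and it did so in lists of the same length too. The shEZH2 and shE2F1 comparisons share the 2 shCtrl libraries, so values that are low or high in both are not independent.

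With the PRC2 perturbations pooled, HOX promoters with a peak numbered 6.25 ± 0.5 (SD, n = 4: shEZH2, shSUZ12, GSK126) and 6.33 ± 0.577 in the controls (SD, n = 3: shCtrl, DMSO). The difference was -0.0833 (exact permutation test, two-sided, p = 1), and the smallest p of this design is 0.0286. The share of cluster peaks, counted with the 50 kb on either side, was 6.6 ± 0.477 per 10000 peaks of a list with PRC2 perturbed and 6.68 ± 0.276 in the controls (difference -0.0773, exact permutation test, two-sided, p = 0.943, n = 4 and 3). The direction depended on the setting: the difference was 0.483 with lists of the same length and 0.266 without flanks, but -0.311 with shRNA libraries alone and -0.0403 with a −log10 q of at least 5. With shE2F1 the share was 6.38 ± 0.292 and with shCtrl 6.74 ± 0.363 (SD, n = 2 each), a difference of -0.358 (exact permutation test, two-sided, p = 0.667), which became 0.256 with lists of the same length.

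The single shSUZ12 library showed the same 6 open promoters. None of the 32 closed members gained a peak, against 2.71% of all promoters, and 0 of 6 lost it, against 1.17%. Against both shCtrl libraries, HOXA13 (74) and HOXD1 (68.2) ranked higher, HOXB5 (48.3), HOXC5 (21.2) and HOXB9 (45.1) lower, and HOXD4 (36.9) between. That is 2 of 6 higher and 3 of 6 lower, against 52.6% and 19.2% of all promoters. The GSK126 library held the same 6 promoters too. Of 31 members closed in DMSO 0 gained a peak, against 2.50% of all, and 1 of 7 lost it, the weak HOXD11 peak, against 2.86%. GSK126 ranked over 10 percentiles lower than DMSO at 3 of 6 members, HOXB5 (36.3 against 51.7), HOXB9 (40.8 against 52.5) and HOXD4 (39.3 against 51.4), against 15.4% of all promoters. It ranked over 10 higher at 1, HOXD1 (71.6 against 61), against 6.87%. HOXA13 (64.2 against 68.7) and HOXC5 (27.7 against 33.2) differed by less than 10. Each of these comparisons rests on a single treated library and has no replicate check.

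Regions gained and lost in the clusters were counted beside those of the genome. With shEZH2, 6 of 67 cluster regions were lost from both libraries (8.96%, against 7.20% of all regions) and 0 were gained (against 0.889%). Of the 6, 2 lay between first and last member. One, in HOXD at chr2:176178526-176179207 near the starts of HAGLR and HAGLROS, had percentiles of 16.6 and 57 in shCtrl, 58.7 in DMSO, 63.9 and 35.6 in shE2F1, 30.1 in shSUZ12 and 15.6 in GSK126, and no peak in either shEZH2 library. A neighbouring weak peak that also lies near these starts was listed in the first shEZH2 library, at 5.81. The other, in HOXC at chr12:54036889-54037134 downstream of HOXC5, had 18.6 and 18.7 in shCtrl, 2.91 in DMSO, 34.1 in the second shE2F1 library, 7.89 in GSK126 and none in the other 4. The bases around the shCtrl summits of these lost sites are chr2:176178629-176178829 and chr12:54036934-54037134, plus strand, with motif matches in capitals.
HOXD lost site: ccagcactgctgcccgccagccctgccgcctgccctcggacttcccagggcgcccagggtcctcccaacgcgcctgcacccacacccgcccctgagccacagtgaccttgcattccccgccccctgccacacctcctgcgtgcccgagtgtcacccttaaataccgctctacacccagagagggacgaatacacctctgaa
HOXC lost site: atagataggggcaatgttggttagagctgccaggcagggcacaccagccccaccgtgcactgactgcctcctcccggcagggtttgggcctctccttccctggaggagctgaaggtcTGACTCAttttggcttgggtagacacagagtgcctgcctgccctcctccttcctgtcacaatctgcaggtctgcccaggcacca
The capitals at the HOXC site are TGACTCA, an AP-1 match, which 25.5% of all regions hold. In lists of the same length 1 cluster region was lost with shEZH2 in place of 6, and 1 was gained. The shares over all regions in lists of that length are not given here.

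With shE2F1, 4 of 71 cluster regions were lost (5.63%, against 3.81% of all regions) and 3 were gained (4.23%, against 2.86%). The strongest of the lost ones was the HOXA10 alternative start, chr7:27179803-27180268, with percentiles of 60.1 and 66.7 in shCtrl and 60.8 in DMSO. This site had no peak in either shE2F1 library nor in the first shEZH2 library, and stood at 13.8 in the second shEZH2 library, 43 in shSUZ12 and 47.9 in GSK126. It was listed in all 3 controls and lower or unlisted in each of the 6 perturbed libraries. The HOXD site lost with shE2F1, chr2:176135039-176135250, had 24.5 and 17.2 in shCtrl, 22 in the first shEZH2 library, 40 in GSK126 and no peak in the other 5, DMSO among them. In HOXC the gained region, chr12:53991197-53991406 next to MIR196A2, had percentiles of 4.74 and 6.08. With shSUZ12, 6 of 66 cluster regions were gained (9.09%, against 6.84%) and 4 lost (6.06%, against 8.55%), and the gained ones had percentiles of 4.2 to 13.3. With GSK126, 8 of 56 were gained (14.3%, against 9.16%) and 9 lost (16.1%, against 17.6%).

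Among the 12 constant regions away from canonical HOX starts, the calls lay near the background. With shEZH2, 5 of 12 were lower without overlap, against 32.3% of the 40606 constant regions of the genome, and 0 were higher, against 11.2%. With shE2F1, 4 of 12 were lower, against 23.8%, and 1 was higher, against 15.6%. The intron region of HOXB3 had 95.2 and 94.7 in shCtrl, 92.7 and 94.4 in shEZH2, and 89.1 and 90.9 in shE2F1, a small drop in rank at the top of the lists. The HOXC region at the HOXC4 alternative start had 67.1 and 61.9 in shCtrl, 44.7 and 37.3 in shEZH2, and 19.4 and 58 in shE2F1. The HOXB region between HOXB1 and HOXB2 had 68.7 and 67.5 in shCtrl and 48.4 and 47.3 in shEZH2, and these replicates were close. In lists of the same length, a setting added after the data were seen, 2 of the 12 were lower and 3 higher with shEZH2, against 17.8% and 22.7% of the genome. With shE2F1, 5 were lower and 1 higher, against 21.9% and 17.7%.

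Noncoding genes of the clusters mostly had no peak at their start. Of 49 with their canonical start between first and last member, 5 had a peak in all 9 lists, 11 in some and 33 in none. Of the 26 long noncoding RNA genes among them, 3 had a peak in all 9 lists, 5 in some and 18 in none. The share over all noncoding genes is not given here. HOTAIR, the HOXC antisense RNA known for its tie to PRC2 and to breast cancer, had no peak at its start in any list. Nor had MIR10A and MIR10B, the microRNA genes of HOXB and HOXD. The 5 constant ones were HOXC-AS2, ENSG00000273046, MIR615, HAGLR and MIR7704, and their starts share the open regions already described for HOXC and HOXD. HAGLROS and LINC02086, with peaks in 8 and 7 lists, were unlisted in the second shEZH2 library, the shallowest. LINC02086 was also unlisted in the first shE2F1 library.

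The partners and regulators of HOX proteins were mostly open. Of 22 such genes, 16 had a promoter peak in all 9 lists (72.7%, against 60.0% of all protein-coding promoters). Among them were the cofactors PBX2, PBX3, PBX4, MEIS1, MEIS2 and PKNOX1, the HOX activator KMT2A, and EZH2, SUZ12, EED and E2F1. The caudal-type activators CDX1, CDX2 and CDX4 had no peak in any list. At MEIS1, a HOX cofactor of blood and limb, percentiles were 42.1, 60.1 and 66.1 in the controls, 57.4 and 49.4 in shEZH2, 39.9 and 53 in shE2F1, 23 in shSUZ12 and 20.5 in GSK126. The shSUZ12 and GSK126 libraries were the lowest of the 9 there. Of the ParaHox genes, sisters of the HOX clusters, GSX2 was open in all lists and GSX1 and PDX1 were closed in all. Of 65 other developmental homeobox genes, 21 had a peak in all 9 lists (32.3%) and 32 had none in any (49.2%), beside 15.8% and 81.6% of the HOX members.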

How the data were processed

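Open chromatin was profiled by ATAC-seq in 9 MDA-MB-231 libraries, which were grouped by their labels. The authors aligned the reads with Bowtie2 to GRCh38 (hg38), per the submitters' notes, after which read ends were moved to where Tn5 cuts. The ATAC-seq peak caller is not given in the sources used here. Each deposited list holds, per peak, the fold enrichment, a ratio of the summit to its local background made by the authors' caller, with −log10 p and −log10 q as deposited and the summit position. Peaks were listed per library, so replicates were not pooled, and the lowest −log10 q in a list was 2 to 2.07. A promoter without a listed peak was called closed, which says only that no peak passed this limit.

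The members, gene lists and tests were chosen with earlier results of these data known. From 20033 protein-coding genes 38 members were taken by name, and a further HOX gene named in the rule and a few other items are not reported here. A promoter was open where all 3 controls had a peak, closed where none had. Percentiles ranked fold enrichment within a list. Peaks that shared at least 1 bp were joined into regions. A region was gained when every treated list and no control list had a peak, and lost in the reverse case. Percentiles were called different when all treated libraries lay on 1 side of all controls. Totals were compared by exact permutation tests, two-sided. Values in every library were given for members whose presence or percentile differed, and for the open members with the highest and lowest control percentile of each cluster. Regions named were the strongest of each cluster and those gained or lost in both libraries of a knockdown between first and last member. Regions and genes described beyond these were named after their values were seen. CpG ratios, motifs and sequences were read from the GRCh38 genome within 1 kb of a start, or 100 bp of a summit. Depth was taken from the Poisson background that fold enrichment and −log10 p imply, taking summit tags as whole numbers, which was met to within 0.002 in −log10 p for at least 99.9% of peaks in each list. The assignment of peaks to promoters, merging and the calls of gain, loss and higher percentile were checked on simulated peak lists. The permutation test was checked on fixed numbers. Alternatives were other promoter windows, all protein-coding starts, lists of the same length, a −log10 q of at least 5, ranking by −log10 p, windows of 250 bp around summits, no flanks, other controls, the replicate block, and leaving out each replicate. Python 3.11.15, numpy 2.4.6, pandas 2.3.3, scipy 1.17.1 and matplotlib 3.10.9 were used.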

Additional observations from a re-analysis of the deposited data

Results flagged for a closer look

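Each replicated knockdown was set beside shCtrl for every HOX promoter and constant region with a peak in the 6 libraries. Of these, 2 moved in opposite directions in all libraries, and neither difference was tested. Over all promoters, 29.7% were lower in both shEZH2 libraries and 19.2% higher in both shE2F1 libraries. Over the constant regions of the genome, these shares were 32.3% and 15.6%. The share that did both is not given here, so the 2 are a description only. At HOXD1 both shEZH2 libraries (55.3 and 40.1) were below both shCtrl libraries (58 and 64.4), and both shE2F1 libraries (65.5 and 75.6) were above them, so that the shE2F1 mean exceeded the shEZH2 mean by 22.8 percentiles. In lists of the same length HOXD1 with shEZH2 (44.9 and 40.1) overlapped shCtrl (43.7 and 50.4), so the opposite movement was lost there. At the HOXC region that starts at position 53995215 of chromosome 12, where HOXC-AS2 and the alternative HOXC6 and HOXC9 transcripts begin, shCtrl had 42.3 and 41, shEZH2 35.7 and 27.4, and shE2F1 46.7 and 52, a difference of 17.8. DMSO, also a control, stood at 61.4 in this region, above both shE2F1 values. The shSUZ12 library, with 68.2 at HOXD1 and 66.8 at the HOXC region, was above shCtrl at both, and GSK126, with 71.6 and 63.9, was above DMSO (61 and 61.4).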

How the results depend on the processing

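HOX promoters with a peak differed by at most 1 between the groups in all settings. With all protein-coding starts the shE2F1 difference was -1, and the pooled PRC2 difference became 0.333 with shRNA libraries alone. The PRC2 difference in cluster peak share turned from -0.0773 to 0.266 without flanks and 0.483 with lists of the same length, and ran from -0.176 to 0.134 when replicates were left out. It was positive without the first shCtrl or the second shEZH2 library. The shE2F1 share turned to 0.256 with lists of the same length. Lower percentile calls fell from 5 to 3 with shEZH2 in lists of the same length. Leaving out replicates, shE2F1 had 1 to 2 higher and 3 to 5 lower members, with 2 higher without its first replicate (43.8% of all promoters) and 5 lower without its second (44.9%). With shEZH2, 0 were higher and 5 to 6 lower, beside 42 to 53.8% of all promoters lower. In lists of the same length shEZH2 had 1 region gained and 1 lost, shE2F1 2 lost, shSUZ12 1 lost and GSK126 5 lost. Without flanks 2 regions were lost with each of shEZH2, shE2F1 and shSUZ12, 4 with GSK126, and 1 was gained with shE2F1. With a −log10 q of at least 5, shE2F1 had 2 lost and shSUZ12 2 gained. Summit windows gave shEZH2 1 gained and shE2F1 2 lost. Against both shCtrl libraries GSK126 had 2 gained and 3 lost. Leaving out each replicate gave 0 to 3 gained and 7 to 15 lost with shEZH2, 3 to 7 gained and 5 to 12 lost with shE2F1, and 12 lost with shSUZ12 either way. For region counts under these settings the shares over all regions are not given here. Those counts therefore show nothing particular to the HOX clusters. The causes were not tested. The difference between replicates 2 and 1 correlated across promoters at 0.052 between shEZH2 and shCtrl and at 0.0576 between shE2F1 and shCtrl. Replicate numbers were not used to pair libraries in the main comparisons. These correlations cannot show whether libraries were made in pairs. With the replicate block the promoter differences were 0.5 and 0, the shE2F1 share difference -0.358, and the percentile calls 5 lower and 0 higher with shEZH2 (39.9% and 16.1% of all promoters) and 4 lower and 1 higher with shE2F1 (25.7% and 27.6%). Counting noise at 13 to 40 tags limits the weak peaks.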

Other observations

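Among the other developmental homeobox genes, chosen here after their values were seen, IRX1 had a promoter peak in all 3 controls (21.8, 8.4 and 12.1), in shSUZ12 (15.1) and in GSK126 (13.5), and in none of the 4 shEZH2 and shE2F1 libraries. PITX3 had a weak peak in both shEZH2 libraries (3.41 and 0.709) and in no other list.

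Outside the members, the 50 kb on either side of HOXC held no region, and 14 regions flanked HOXA, 10 HOXB and 2 HOXD. A HOXB flank region 25 kb from the HOXB1 start had percentiles from 90.8 to 96.8 in the 9 lists, and its summit window holds AP-1 letters.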
